A study of Mus musculus with 2 samples.

Results

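The regions described here are the accessible regions of mouse early thymic progenitors that were among the strongest in wild-type cells and again among the strongest in cells lacking E2A and HEB. They are 5842 pairs of overlapping autosomal peaks, out of 50953 autosomal pairs called in both genotypes and out of 85764 wild-type and 69896 double-knockout peaks. A pair consists of 1 peak of each deposited list with at least 1 bp in common. The authors' peak score was turned into a percentile within each list, with 100 for the strongest peak, and a pair was taken when both of its peaks lay above 90. These values chose the regions, so scores and percentiles are given below as a description and support nothing. The part chosen was 11.5% of the shared autosomal pairs.

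ATAC-seq, which uses a transposase to cut and tag open DNA, was run on sorted progenitors of the fetal thymus from C57BL/6 mice. The first library came from wild-type animals, and its cells were negative for CD4, CD8, lineage markers and CD25 and positive for CD44 and ckit. The second came from E2Afl/flHEBfl/flIL7RCre animals, in which both E protein genes carry floxed alleles and Cre is tied to the IL-7 receptor gene, and its cells carried the same markers plus YFP. The sources used here give neither the embryonic age nor the number of animals pooled, and the loss of E2A and HEB was not checked. With 1 library per genotype there is no replicate check on any difference between genotypes and no test was made; genotype, YFP gate and library cannot be told apart. Intervals are exact 95% intervals that cover counting error over peaks only and treat neighbouring peaks as independent.

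E2A and HEB belong to the basic helix-loop-helix family, bind E-box sequences and drive the T cell and B cell programmes, while Id proteins hold them inactive. In many cell types, the most accessible sites include promoters of widely expressed genes and sites bound by the insulator protein CTCF, and enhancers specific to a cell type are often weaker and more numerous. Coordinates are mm9. The gene tables at hand are of a later build, so the regions below are named by position, with no gene, exon or motif assigned and no sequence printed. For the same reason the sorted cell type could not be checked against its marker genes.

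The first comparison asked what became of the strongest peaks of each genotype in the other. Of the 8443 autosomal wild-type peaks above percentile 90, 69.2% (68.2 to 70.2%) had a partner above 90 in the double knockout. Because only 6883 double-knockout peaks lay above that limit, this share could not exceed 81.5%. Of those 6883, 84.9% (84.0 to 85.7%) had a partner above 90 in the wild type. Many other strong peaks had a partner just below the limit. Of the wild-type peaks, 1448 (17.2%) had a partner between percentiles 80 and 90, 446 (5.28%) one between 50 and 80, and 145 (1.72%) one in the lower part of the double-knockout list. In the other direction these counts were 476 (6.92%), 131 (1.90%) and 5 (0.0726%). No overlapping peak was found for 562 wild-type (6.66%) and 429 double-knockout peaks (6.23%). For comparison, 60.9% of all autosomal wild-type peaks and 74.7% of all autosomal double-knockout peaks overlapped a peak of the other list.

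**Figure D1:**
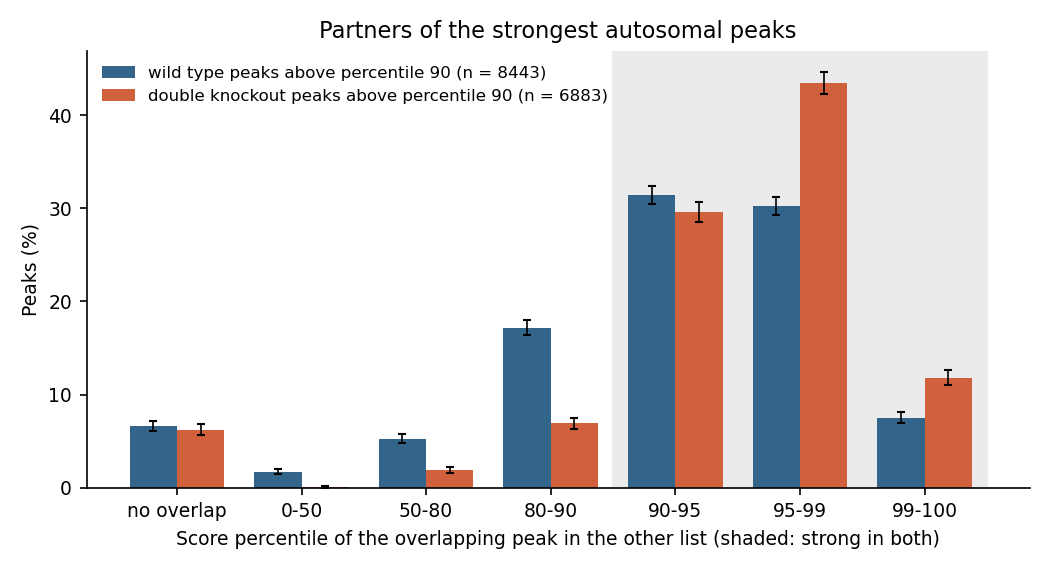
Autosomal peaks above score percentile 90 in the wild-type list (blue, 8443 peaks) or the double-knockout list (orange, 6883 peaks), as the percentage (y axis) whose overlapping peak in the other list falls into each percentile band (x axis). Bars are shares, lines exact 95% intervals, and the shaded bands hold the 5842 pairs strong in both; few strong peaks have a partner below percentile 50.

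Wild-type scores of the chosen regions ran from 27.5 to 269.1, with a median of 44.5 and quartiles of 36.4 and 55.4. Double-knockout scores ran from 34.3 to 247.5, with a median of 50.9 and quartiles of 42.0 and 64.1. What a score of 1 stands for is not stated, so scores of the 2 lists are not compared with each other. The wild-type list is longer and the limit fell at rank 8538 there and at rank 6968 in the double knockout. At this lower edge, the weakest regions taken had a double-knockout score of 34.3 (percentile 90.01), such as the region on chromosome 9 at 56785168 to 56785318, whose wild-type score was 27.7. The pairs just outside had a double-knockout score of 34.2 (percentile 89.96), such as chromosome 1 at 62922446 to 62922596, with a wild-type score of 42.5.

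The regions that led one list mostly led the other. Of the 10 strongest autosomal peaks of each list, 7 were pairs with each other. Of the strongest 100, 66 were, of the strongest 1000, 737, and of the strongest 5000, 3912 (78.2%). The strongest region in both lists lay on chromosome 17 (39984605 to 39984755), with a wild-type score of 269.1 and a double-knockout score of 247.5. A neighbour 655 bp before it on the same chromosome (39983950 to 39984100) scored 251.9 and 213.8 and ranked 3 and 2. Both were marked at shifted places, 92 and 137 bp lower in the double knockout. Next came a region on chromosome 8 (19784493 to 19784643), with scores of 221.6 and 201.0 and ranks of 4 and 3. A region on chromosome 16 (11144188 to 11144338) scored 168.0 and 157.2 and ranked 5 and 4. From there the scores fell off: chromosome 4 (145586975 to 145587125) held rank 6 in both lists with 129.2 and 138.4.

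The remaining 5 of the 10 regions with the highest lower percentile had wild-type scores of 102.7 to 122.9 and double-knockout scores of 123.6 to 142.2. They lay on chromosome 7 (144602381 to 144602531 and 17509609 to 17509759), chromosome 8 (4166197 to 4166347), chromosome 3 (75361039 to 75361189) and chromosome 12 (60320680 to 60320830). Their centres differed by 0 to 8 bp between the lists. The wild-type peak of rank 2, on chromosome 2 (98507233 to 98507383, score 268.8), paired with a double-knockout peak of rank 22. The wild-type peak of rank 10, on chromosome 16 (42875635 to 42875785), was no member: the nearest double-knockout centre was 189 bp away, too far for overlap. Regions of repeated DNA can gather reads from many copies. No list of such regions was used, and which of these leading regions lie in repeats was not tested.

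Within the chosen set the percentiles differed little, as the limits require. The median wild-type percentile was 96.3 and the median double-knockout percentile 95.5, and 3181 regions (54.5%) differed by at most 1 point. The wild-type percentile was the higher in 3990 regions and the double-knockout percentile in 1851, with 1 tie. Because the lists differ in length, a percentile stands for different ranks in them, so this split is no measure of loss. Over 5 points lay between the lists in 58 regions higher in the wild type and in 17 higher in the double knockout.

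The largest fall was on chromosome 13 (61038012 to 61038162), from percentile 98.8 (score 61.7, rank 1023) in wild-type cells to 90.01 (score 34.3, rank 6968) without the E proteins. Next were chromosome 7 (56193109 to 56193259, from 98.2 to 90.2), chromosome 12 (33638802 to 33638952, from 97.2 to 90.3), chromosome 14 (69903083 to 69903233, from 99.8 to 93.04) and chromosome 1 (153191442 to 153191592, from 96.9 to 90.2). The largest rise was also on chromosome 7 (29478622 to 29478772), from percentile 90.1 (score 27.6, rank 8491) to 99.02 (score 77.3, rank 687), with centres 1 bp apart. The others were chromosome 2 (68268675 to 68268825, from 90.5 to 98.2), chromosome 19 (46694513 to 46694663, from 90.5 to 97.5), chromosome 10 (86453460 to 86453610, from 90.02 to 97.1) and chromosome 3 (89676329 to 89676479, from 90.5 to 97.4). In the 5 regions that rose the centre lay 1, 8, 77, 73 and 79 bp away in the other list, in the order given. In the 5 regions that fell it lay 5 to 30 bp away.

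The region on chromosome 14 belongs to a stretch (69200001 to 71800000) where 139 of 177 wild-type peaks (78.5%, 71.7 to 84.3%) overlapped no double-knockout peak, against 39.1% over the autosomes. Of its 38 shared pairs 3 were strong in both lists (7.89%, 1.66 to 21.4%), a range that includes the 11.5% of all autosomes. All 3 stood at a lower percentile in the double knockout, as did 68.3% of all the strong regions. The second, at 70977511 to 70977661, went from 96.7 to 92.2, and the third, at 71166480 to 71166630, from 98.1 to 95.05.

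Where exactly a strong region was marked was not used to choose it beyond the overlap. Most strong regions were marked within 10 bp of the same place in both genotypes. The centres of the 5842 pairs lay a median of 6 bp apart (interval 6 to 7, quartiles 3 and 16), against 10 bp over all shared autosomal pairs (quartiles 4 and 22). In 64.2% (63.0 to 65.4%) of the strong regions the centres were at most 10 bp apart, against 52.5% of all shared pairs. In 321 strong regions (5.49%) they fell on the same base, against 3.26% of all shared pairs. The share within 10 bp climbed from 42.4% (41.6 to 43.2%) in pairs whose lower percentile was up to 30, through 58.4% (57.4 to 59.4%) between 70 and 90, to 69.8% (65.7 to 73.6%) in the 549 pairs above 99. No direction was preferred, with a median signed distance of 0 bp. Distant centres did not become rarer in the same way. Among the strong regions 343 (5.87%, 5.28 to 6.51%) had centres over 75 bp apart, against 2574 (5.05%, 4.86 to 5.25%) of all shared autosomal pairs. The counts were 451 pairs (4.60%, 4.20 to 5.04%) between percentiles 70 and 90 and 903 (6.03%, 5.66 to 6.43%) up to 30. The strong set thus held a larger share of closely matched regions and also a larger share of displaced ones than the set just below it. Its share of displaced regions was no larger than that of the weakest pairs, so such displacement was not particular to strong regions.

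**Figure D2:**
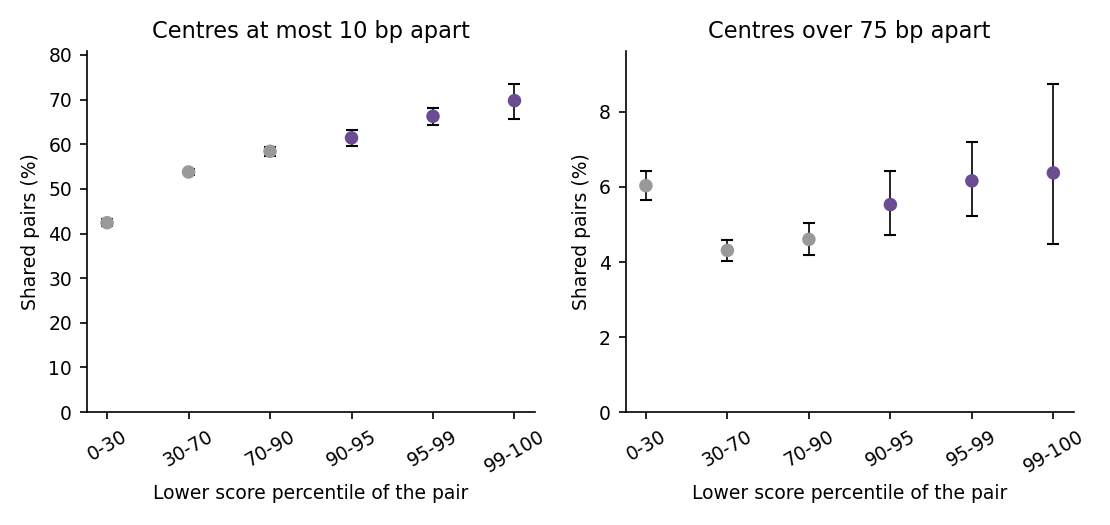
Share of shared autosomal pairs (y axes, %) whose wild-type and double-knockout centres lie at most 10 bp apart (left) or over 75 bp apart (right), by the lower score percentile of the pair (x axes). Points are shares, lines exact 95% intervals, grey for weaker pairs and purple for those strong in both; the left panel rises from 42.4 to 69.8% and the right panel is lowest between percentiles 30 and 70, at 4.31%.

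Some strong regions came as close neighbours. No list has starts closer than 300 bp, so 1 wide accessible region can carry more than 1 peak. Another strong region lay within 500 bp of 293 of the 5842 (5.02%) and within 1 kb of 463 (7.93%, 7.25 to 8.65%). The matching share for all shared pairs is not given here. No other peak of either list lay within 1 kb of 74.7% of strong regions, 79.5% of all shared pairs and 71.2% of those between percentiles 70 and 90. Close neighbours were thus not shown to be particular to strong regions. In 236 cases a strong region was followed by another within 1 kb, at a median distance of 464.5 bp in wild-type cells (quartiles 399.75 and 595) and 455 bp in double-knockout cells (402 and 592). Because each region overlaps its partner, both distances had to be close, and their difference (median 12 bp) follows from the centre shifts given above. The leading regions of chromosome 17 were 655 bp apart in wild-type cells and 700 bp in double-knockout cells. The widest disagreement was on chromosome 8, where regions starting at 129117957 and 129118455 were 498 and 354 bp apart. The chromosome 8 example was chosen after its values were seen.

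Over longer distances most strong regions had no other strong region close by. The median distance from a strong region to the nearest other was 50974 bp. From a shared pair of any strength to the nearest other it was 8691 bp. Strong regions are 11.5% of the shared pairs, so their smaller number alone gives a wider spacing. No other peak of either list lay within 50 kb of 62 strong regions (1.06%), against 2.03% of all shared pairs. The share was 0.725% between percentiles 70 and 90 and 3.51% up to 30. When strong regions within 12500 bp were joined, 4676 had no other strong region in reach. Of the groups, 479 held 2, 46 held 3, 15 held 4 and 2 held 5. In all, 1166 regions (19.96%, 18.9 to 21.0%) had another within 12500 bp. This share was 13.0% when strong regions within 1 kb were counted as 1, a setting added after the data were seen, and 10.6% among regions above percentile 95 in both lists. No matching share or group sizes are given for other shared pairs. Whether strong regions group more than an equal number of other pairs was not tested. A group of 5 on chromosome 7 (29157675 to 29177901) covered 20227 bp and held 7 peaks of each list. Its members started at 29157675, 29160564, 29164233, 29168084 and 29177751, with scores of 55.5, 38.1, 38.2, 40.6 and 61.6 (wild type) and 59.0, 37.7, 45.4, 43.2 and 64.6 (double knockout). The outer regions were the strongest in both lists. The other group of 5, on chromosome 8 (87489953 to 87514429), covered 24477 bp and held 8 peaks of each list. Its wild-type scores, in order of position, were 38.4, 30.4, 28.6, 31.1 and 36.6, and its double-knockout scores 37.2, 55.3, 39.6, 42.5 and 56.8. There the first region stood at a lower percentile in the double knockout (91.2 against 94.7) and the other 4 at a higher one.

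The 15 groups of 4 lay on 9 chromosomes and covered 1906 to 29305 bp. The most compact was on chromosome 14 (51683097 to 51685002), with 4 peaks in each list. In a group on chromosome 13 (23622922 to 23636382), wild-type percentiles ran from 97.0 to 98.1 and double-knockout percentiles from 90.6 to 96.8, so the ranges did not overlap. A lower percentile in the double knockout was found in 68.3% of all strong regions. In a group on chromosome 2 (132073484 to 132088865) they ran from 96.9 to 99.4 and from 96.6 to 99.2. That group had the highest minimum in the double knockout of the 15. The groups named here were picked for their values, so their ranges describe them and test nothing.

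The share of shared regions that were strong in both lists varied between chromosomes. Against 11.5% (11.2 to 11.7%) over the 19 autosomes, it was highest on chromosome 7, with 509 of 3273 pairs (15.6%, 14.3 to 16.8%). Chromosomes 10 (385 of 2886, 13.3%, 12.1 to 14.6%) and 8 (346 of 2599, 13.3%, 12.03 to 14.7%) followed. The share was lowest on chromosome 15, with 184 of 2178 pairs (8.45%, 7.31 to 9.70%), and was also low on chromosomes 9 (9.67%), 14 (9.76%) and 11 (9.78%). The intervals of these 7 chromosomes excluded 11.5% and those of the other 12 did not. Both lists contributed: on chromosome 7, 13.9% of wild-type and 13.8% of double-knockout peaks lay above percentile 90, and on chromosome 15, 8.23% and 7.28%.

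The surplus of chromosome 7 came from its first 60 Mb, a limit set after the values were seen. There 271 of 1211 shared pairs (22.4%, 20.1 to 24.8%) were strong in both lists, against 238 of 2062 (11.5%, 10.2 to 13.0%) on the rest of the chromosome. In bins of 10 Mb the share was between 17.0 and 42.9% in the first 6 bins, the highest of these resting on 21 pairs, and between 8.63 and 15.8% in the other 10. Of the wild-type peaks there, 22.0% lay above percentile 90, and of the double-knockout peaks 19.9%. Centres of strong regions in that stretch were a median of 6 bp apart. Chromosome 7 also carries the most protein-coding genes of the autosomes in RefSeq (GRCm38.p6), 2030, and the fewest shared pairs per 100 genes, 161, against 213 to 320 on the others. Set against genes, its strong regions were not numerous, at 25.1 per 100 genes, in a range from 21.5 on chromosome 11 to 38.5 on chromosome 10. Only gene counts per chromosome were taken from that build.

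**Figure D3:**
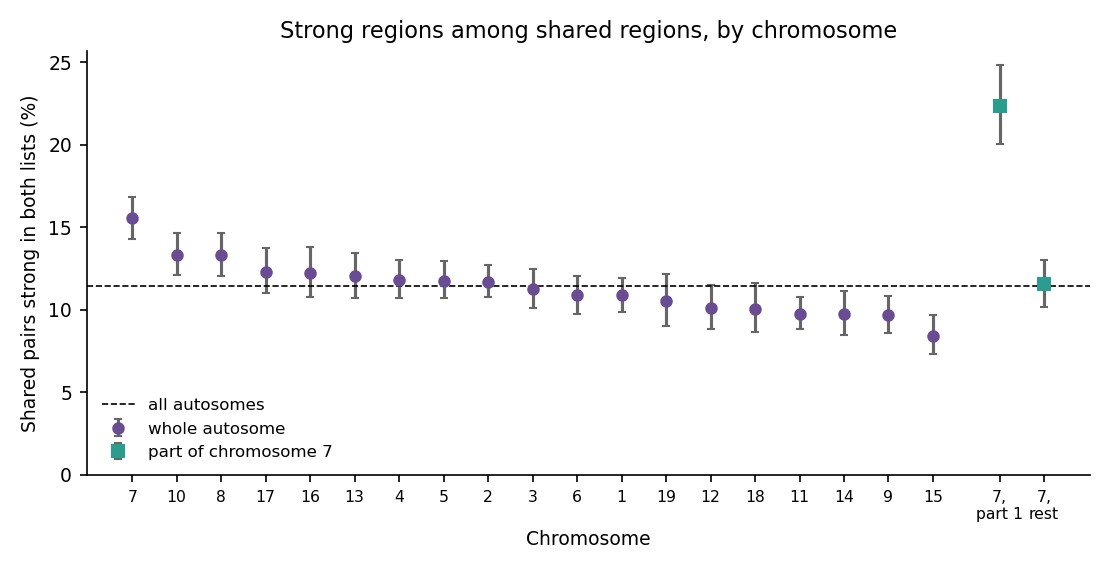
Share of shared pairs that were strong in both lists (y axis, %) on each autosome, ordered by that share, and at the right on the first 60 Mb of chromosome 7 (part 1) and on its rest. Points are shares, lines exact 95% intervals, and the dashed line is the share over all autosomes, 11.5%; chromosome 7 stands at 15.6% and its first part at 22.4%.

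Windows of 2 Mb show where strong regions were many and few. Among 1191 windows of 2 Mb with a shared pair, the median number of strong regions was 4 and 183 windows (15.4%) had none. Those 183 held few shared pairs of any strength, with a median of 6. The window with the highest number of strong regions was on chromosome 17 (56000001 to 58000000), where 41 of 105 shared pairs were strong in both lists (39.0%, 29.7 to 49.1%). Next came chromosome 7 (28000001 to 30000000) with 40 of 130, chromosome 10 (80000001 to 82000000) with 36 of 125 and chromosome 8 (72000001 to 74000000) with 35 of 118. Other windows were dense in shared regions yet held no strong one. A window on chromosome 6 (98000001 to 100000000) and another on chromosome 13 (52000001 to 54000000) each held 65 shared pairs and 0 strong in both, which allows a share of up to 4.62% by a floor of 3 counts and 5.52% by the exact interval. A window on chromosome 12 (52000001 to 54000000) held 39 and 0. These windows are the extremes of all windows, picked for their values, so the counts describe them and test nothing.

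The last comparison asked what surrounded a strong region. Within 1 kb, strong regions had 0.203 other wild-type and 0.232 other double-knockout peaks on average. All shared pairs had 0.165 and 0.178, and those between percentiles 70 and 90 had 0.243 and 0.272. Within the strong set the values fell from 0.216 and 0.254 at a lower percentile of 90 to 95 to 0.162 and 0.160 above 99. Within 2 kb strong regions had 0.281 and 0.306, against 0.281 and 0.281 for all shared pairs. Farther out, other peaks were rare, and this gap ended sharply at 5 kb. Between 2 and 5 kb from a strong region there were 2.27 wild-type peaks per 100 kb, against 4.30 around all shared pairs and 4.71 around those between percentiles 70 and 90. Around the 549 regions above percentile 99 there were 0.941. From the kilobase between 4 and 5 to that between 6 and 7, the density rose from 2.35 to 6.69 wild-type peaks per 100 kb around strong regions, a ratio of 2.84, and from 1.89 to 5.94 double-knockout peaks, a ratio of 3.14. Within the strong set the wild-type ratio was 2.37 for a lower percentile of 90 to 95, 3.24 for 95 to 99 and 7.89 above 99. The value above 99 is imprecise, as it rests on 9 peaks between 4 and 5 kb and 71 between 6 and 7 kb. For pairs between 70 and 90 the ratio was 1.68. The step lay at the same distance in both lists and was present around weak pairs too, at 1.82 up to percentile 30. HOMER, which the submitters' notes name, offers a filter on the reads around a peak. The sources used here do not say whether it was applied, and its part in the gap was not tested.

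Beyond the gap, strong regions lay in surroundings of medium density. Between 5 and 50 kb they had 6.18 other wild-type peaks on average, against 6.07 around all shared pairs, 6.79 around pairs between percentiles 70 and 90 and 5.40 around those up to 30. In the double knockout the values were 5.56, 5.28, 6.10 and 4.55. Strong regions on the first 60 Mb of chromosome 7 had 8.36 wild-type peaks in that range and those on autosomes other than 7 had 6.06. Of the 5842 regions, 1640 (28.1%) had no other peak of either list within 10 kb, against 23.8% of all shared pairs, 16.2% of those between percentiles 70 and 90 and 30.7% of those up to 30. These shares include the gap below 5 kb.

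The farthest from any other peak was on chromosome 7 (11080657 to 11080807), with 1046477 bp to the nearest, and scores of 42.2 and 37.9. A region on chromosome 9 (19426528 to 19426678) lay 581602 bp from the nearest peak and ranked 185 and 202, and its centres were 4 bp apart. The next 3 were on chromosome 4 (25208892 to 25209042, 314941 bp), chromosome 3 (5860430 to 5860580, 246311 bp) and chromosome 10 (29920222 to 29920372, 219107 bp). At the other extreme, 3 strong regions on chromosome 6 between 122760867 and 122761976 each had 5 other wild-type and 6 other double-knockout peaks within 10 kb. Regions on chromosome 1 (167639871 to 167640021) and chromosome 11 (74652035 to 74652185) had the same numbers.

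**Figure D4:**
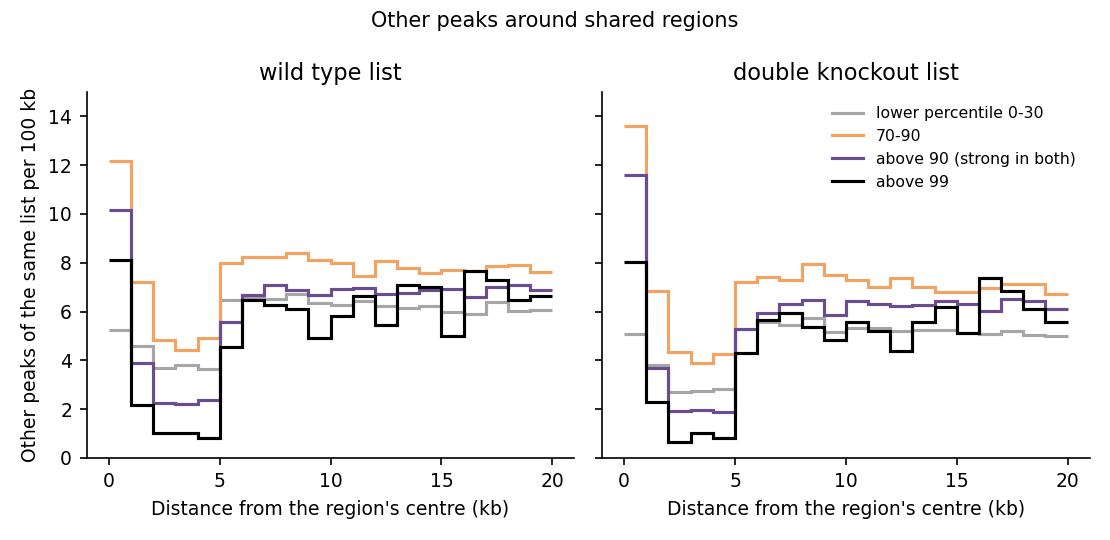
Other peaks of the same list per 100 kb (y axes) by distance in kb from the centre of a shared region (x axes, steps of 1 kb), in the wild-type list (left) and the double-knockout list (right), for pairs with a lower percentile up to 30 (grey), 70 to 90 (orange), above 90 (purple, strong in both) and above 99 (black). In both lists the density drops between 1 and 5 kb and returns at 5 kb, and the drop is deepest above percentile 99.

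The double-knockout list held 0.815 autosomal peaks per wild-type peak. Around strong regions, within 10 kb, the ratio was 0.947 (0.913 to 0.981), against 0.891 around all shared pairs, 0.944 (0.922 to 0.966) between percentiles 70 and 90 and 0.827 (0.808 to 0.847) up to 30. The intervals of strong regions and of those just below them overlapped. Within 2 kb the ratio was 1.09 (1.02 to 1.17) around strong regions and 1.06 (1.01 to 1.103) between percentiles 70 and 90. Around all shared pairs it was 0.9996 (0.977 to 1.02). Within 1 kb it was 1.14 (1.06 to 1.24) around strong regions and 1.08 (1.05 to 1.11) around all shared pairs. A ratio above 1 so close by was thus not particular to strong regions. Above percentile 99 the ratio was 0.989 (0.728 to 1.34) within 1 kb and 1 (0.764 to 1.31) within 2 kb. Peaks near several strong regions were counted more than once, so these intervals are too narrow. With equal numbers of strongest peaks from both lists the ratio was 1.02 around strong regions and 1.01 around all shared pairs. Of the 696 wild-type peaks within 1 kb of a strong region that were not strong in both lists themselves, 61.9% (58.2 to 65.5%) overlapped a double-knockout peak. Of the 861 such double-knockout peaks, 50.3% (46.9 to 53.7%) overlapped a wild-type peak. For all autosomal peaks not strong in both lists, the share was 58.0% (57.6 to 58.3%) of wild-type peaks. It was 72.3% (72.0 to 72.7%) of double-knockout peaks. Between 5 and 50 kb from a strong region the shares were 63.7% (63.1 to 64.4%) and 73.1% (72.4 to 73.7%), in the same order. The peaks within 1 kb were stronger, with median percentiles of 85.0 (wild type) and 83.6 (double knockout). Those of all peaks not strong in both lists were 46.7 and 46.1, and those between 5 and 50 kb 50.8 and 50.3. Overlap among peaks of matching strength was not tested, so these shares cannot say whether overlap within 1 kb was high or low for its strength.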

How the data were processed

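Accessibility was measured in 2 libraries, and the genotype label assigns 1 to the wild type and 1 to the double knockout. Per the submitters' processing notes, bcl2fastq 1.8.4, HOMER, Bowtie and the build mm9 were used, in roles that the notes leave out. The sources used here do not state how read shifting, duplicates, background and the peak threshold were handled. The deposited score of each peak, in a column without a header, has no stated unit and was used only to rank peaks within its list. The read depth is unknown. Nearly all peaks are 151 bp wide.

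Peaks of both lists were paired by overlap of at least 1 bp, percentiles used average ranks over the full list, and pairs with both above 90 on autosomes were kept. Shares carry exact Clopper-Pearson 95% intervals; the median centre distance carries an exact binomial interval. No test between genotypes was possible. Regions were named by rules on percentile, percentile difference, group size, distance to other peaks and closeness to the limit. The members and lists were chosen with earlier results of these data known; the windows of 2 Mb, the stretch of chromosome 7 and the close neighbours were added after the data were seen. Alternatives covered the limit, the overlap rule, list length and distances. Pairing and the recovery of planted strong pairs were checked on simulated lists, and neighbour counts on a short made-up list. The check of choice looked only at planted pairs, so it could not show wrongly chosen ones. Software was pandas 2.3.3, SciPy 1.17.1 and NumPy 2.4.6 under Python 3.11.15. Work on listed genes, transcription starts and motifs had been planned and was left out for want of mm9 annotation and sequence.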

Additional observations from a re-analysis of the deposited data

Results flagged for a closer look

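The X chromosome was left out of the set. By the same limits, 99 of its 1253 shared pairs were strong in both lists (7.90%, exact 95% interval 6.47 to 9.54%), against 11.5% on the autosomes. They were singled out as a signal in data that the comparisons above do not use.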

How the results depend on the processing

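No paired analysis was possible because each genotype had 1 library, which also leaves no replicate to omit. The number of regions strong in both lists was 5842 as planned, 10942 above percentile 80 and 2967 above 95, as the limit dictates. It stayed between 5422 and 6129 with 50% overlap, centres within 500 bp, equal numbers of strongest peaks or percentiles over autosomes. The median centre distance was 6 to 7 bp under its alternatives. Chromosome 7 had 1.36 times the overall share of strong regions, 1.26 and 1.37 times at limits of 80 and 95, and 1.01 times without its first 60 Mb, a setting added after the data were seen. The share of strong regions with another one nearby was 19.96% within 12500 bp, 12.9% within 5 kb, 30.9% within 25 kb, 10.6% above percentile 95, where fewer regions remain, and 13.0% when those within 1 kb were counted as 1, also added later. The number of double-knockout per wild-type neighbours was 0.947 within 10 kb, 0.908 within 50 kb, 1.09 within 2 kb, 1.02 with equal numbers of strongest peaks and, added later, 0.901 from 5 to 50 kb. Depth is unknown, so how far it limits these lists cannot be stated. The planned settings for gene location and sequence were not run, as they need mm9 annotation or sequence.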
